A study of Mus musculus with 9 samples.

Results

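The 10 genes described here are products and markers of the secretory cells of the airway: the secretoglobins Scgb1a1, Scgb3a1 and Scgb3a2, the enzymes Cbr2 and Cyp2f2, the secreted BPI-fold proteins Bpifa1 and Bpifb1, the lectin Reg3g, the mucin Muc5b and the receptor subunit Gabrp. They were taken by gene symbol from the 19505 genes of a mouse array. All 10 were measured, each by 1 array feature, and 5 of them lay above background on at least 1 array. They were chosen by their log2 signals on the lung arrays, with earlier results of these data in view, so their lung values are given as a description. Counts of them past a threshold in a lung comparison follow from that choice and are read as nothing more.

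All samples were GFP-labelled 3LL cells, a mouse lung cancer line that is also called Lewis lung carcinoma, and C57/BL6 is given as the strain. There were 3 groups of 3: cells cultured for 7 days as a monolayer in a dish, GFP-positive cells isolated on day 7 after transplantation under the skin, and GFP-positive cells isolated on day 7 after transplantation into the lung. All groups thus carry GFP, and the 2 transplanted groups passed a GFP isolation step that is not stated for the dish. The design text calls the host tissue of the last group "BLM lungs" without spelling the abbreviation out. Whether replicates stem from different animals or culture dishes is not stated, so p-values reflect the variation among these 9 arrays and that variation could be technical. In RNA from bulk cells, fewer cells of a type and less RNA per cell cannot be told apart.

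Club cells are dome-shaped secretory cells of the conducting airways. They release secretoglobins and defence proteins into the airway lining fluid, carry enzymes that process inhaled chemicals, and act as progenitors when the airway lining is injured. In the mouse lung Scgb1a1 is the usual marker of these cells, while Scgb3a1, Muc5b and the BPI-fold genes are more typical of larger airways. Lung epithelial identity depends on the transcription factor NKX2-1, and FOXA and C/EBP factors act with it on secretory genes.

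Values are log2 signals as deposited. The 90th percentile of the negative control features of the same array, 7.20 to 7.73 over the 9 arrays, was read as background. Of all genes, 32.6%, 30.3% and 29% lay above it on the dish arrays, 30.8%, 31.4% and 28% on the subcutaneous arrays and 34.4%, 34.3% and 32.4% on the lung arrays. Lung replicates 1 and 2 were closer to each other than to lung replicate 3. Across genes, which are not independent replicates, Pearson's r was 0.991 between lung replicates 1 and 2. It was 0.984 and 0.980 between each of them and lung replicate 3. Within the dish group r was 0.985 to 0.987 and within the subcutaneous group 0.980 to 0.983. The values of lung replicate 3 were thus under the dish range and near the subcutaneous range. Such an r over all genes cannot show whether an array is unusual in a small set of genes. RNA integrity numbers were 8.3, 7.9 and 8.3 for lung replicates 1, 2 and 3. Most of the 10 genes had their highest value on lung replicate 3, as described below. Lung differences from the skin or the dish are therefore given with and without that array for the 5 genes above background. The same is done for part of the called list genes.

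RefSeq promoter sequences (mouse GRCm38.p6) were at hand for 7 of the 10 genes, and not for Scgb1a1, Scgb3a2 and Muc5b. The 250 bases before the start of 4 of them are shown because these genes differ in how they behaved on the lung arrays: Scgb3a1 (chr11:49663345-49663594, plus strand), Cbr2 (chr11:120732022-120732271, minus strand) and Bpifb1 (first of its 2 starts, chr2:154190568-154190817, plus strand) lay far above all other arrays on lung replicate 3, and Cyp2f2 (chr7:27119705-27119954, plus strand) stayed under background. Capitals mark a match, on either strand, to a core motif of NKX2-1 (CACTTGA), FOXA (TGTTTAC) or C/EBP (TTGCNNAA).
Scgb3a1: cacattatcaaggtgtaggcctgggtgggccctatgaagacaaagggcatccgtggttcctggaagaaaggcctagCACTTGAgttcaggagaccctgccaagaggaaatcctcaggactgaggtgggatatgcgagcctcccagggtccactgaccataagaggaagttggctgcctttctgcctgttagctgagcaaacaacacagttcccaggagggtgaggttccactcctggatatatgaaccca
Cbr2: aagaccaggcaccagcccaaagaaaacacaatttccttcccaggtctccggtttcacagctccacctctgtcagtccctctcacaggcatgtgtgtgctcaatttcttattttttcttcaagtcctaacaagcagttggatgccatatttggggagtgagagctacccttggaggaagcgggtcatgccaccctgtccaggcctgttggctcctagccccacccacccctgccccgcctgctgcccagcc
Bpifb1: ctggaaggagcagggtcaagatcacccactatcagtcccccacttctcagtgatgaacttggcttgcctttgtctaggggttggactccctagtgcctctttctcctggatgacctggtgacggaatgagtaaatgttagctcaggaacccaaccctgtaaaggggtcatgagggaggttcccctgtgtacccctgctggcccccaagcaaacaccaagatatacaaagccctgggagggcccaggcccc
Cyp2f2: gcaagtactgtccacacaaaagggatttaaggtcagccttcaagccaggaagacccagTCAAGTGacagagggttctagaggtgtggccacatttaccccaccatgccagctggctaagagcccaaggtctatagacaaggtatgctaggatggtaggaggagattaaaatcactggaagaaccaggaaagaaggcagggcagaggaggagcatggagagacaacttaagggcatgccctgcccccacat
The NKX2-1 letters occurred once in the Scgb3a1 window, beginning 174 bases before the start, and once in the Cyp2f2 window, 192 bases before the start. They were in 2 of the 8 windows of the 7 genes and in 2.68% of all 32851 promoter windows of that length. The FOXA and C/EBP letters were in 0 of the 8 windows, against 3.17% and 9.56% of all windows, and no matches overlapped. A match is a description of the letters in this window and not a binding site.

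The secretoglobins, small secreted proteins that are the most abundant products of club cells, lay at background in the dish and under the skin and reached their highest values on lung replicate 3. Scgb1a1, the club cell secretory protein, read 3.93, 5.25 and 4.11 on the dish arrays, 5.17, 4.17 and 5.23 on the subcutaneous arrays, and 6.31, 9.83 and 13.68 on lung replicates 1, 2 and 3. Every lung array was above the 6 others, but lung replicate 1 was still under background, so only lung replicates 2 and 3 carried a measured signal. The mean difference from the subcutaneous arrays was 5.08 (standard error 1.23), or 3.21 without lung replicate 3. Since the subcutaneous arrays were at background, the lung mean was also set against that background. It lay 2.43 above it on the log2 scale (5.4-fold) with all lung arrays and 0.56 without lung replicate 3. Lung replicate 1 enters these values at its reading under background, so they are not lower bounds.

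Scgb3a2, a secretoglobin of the distal airways, read 3.77, 4.41 and 4.21 in the dish, 3.75, 4.68 and 4.63 under the skin, and 5.55, 6.27 and 13.1 in the lung. The lung group did not overlap with the others, yet only lung replicate 3 was above background, and it exceeded the next highest array by 6.83. Scgb3a1, a secretoglobin of larger airways, read 4.99, 4.57 and 4.71 in the dish, 4.86, 4.88 and 5.51 under the skin, and 4.05, 5.15 and 10.8 in the lung. For Scgb3a1 lung replicates 1 and 2 lay within or under the range of the other groups. The mean lung difference from the subcutaneous arrays was 3.96 for Scgb3a2 and 1.58 for Scgb3a1, and without lung replicate 3 it was 1.56 and -0.48.

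The enzymes that club cells use on inhaled and lipid-derived compounds behaved differently from each other. Cbr2, a carbonyl reductase abundant in the mouse lung, read 5.5, 6.08 and 5.76 in the dish, 5.92, 5.83 and 5.33 under the skin, and 7.55, 7.71 and 12.72 in the lung. It was the 1 gene of the 10 above background on all 3 lung arrays. On lung replicates 1 and 2 it was just above background (7.20 and 7.23 there), and lung replicate 3 was 5.01 above the next highest array. With the 95th percentile of the negative controls as background, Cbr2 was above it on lung replicate 3 alone. Its mean difference from the subcutaneous arrays was 3.64 (standard error 0.97), at least 1.82, and 1.94 without lung replicate 3, at least 0.12. Cyp2f2, the cytochrome P450 that makes mouse club cells sensitive to naphthalene, read 4.44, 4.6 and 5.19 in the dish, 4.69, 4.14 and 4.21 under the skin, and 4.59, 5.34 and 6.67 in the lung. Cyp2f2 stayed under background on all 9 arrays, so its order of values cannot be read as levels.

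Of the secreted defence proteins, 1 was clearly measured. Bpifb1, a BPI-fold protein of airway mucus, read 3.85, 3.41 and 4.14 in the dish, 3.77, 3.57 and 3.99 under the skin, and 3.38, 3.95 and 8.76 in the lung, so that its signal stood above background on lung replicate 3 alone. Bpifa1, its relative in nasal and airway fluid, lay between 3.86 and 4.94 on all 9 arrays, with 4.89 on lung replicate 3 and its highest value on subcutaneous replicate 3. Reg3g, a lectin that binds Gram-positive bacteria, read 3.35 to 4.26 on the dish and subcutaneous arrays and 3.75, 3.91 and 6.7 in the lung. The Reg3g value on lung replicate 3 was the highest of the 9 and still under background (7.36 there).

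Muc5b, the gel-forming mucin that clears the airways, lay between 4.0 and 5.95 on all arrays, read 5.39 on lung replicate 3, and was highest on subcutaneous replicate 2. Gabrp, a GABA-A receptor subunit found in epithelia, read 3.59 to 5.08 in the dish and under the skin and 3.66, 3.83 and 6.35 in the lung. Neither gene passed background on any array. Together with Cyp2f2, Bpifa1 and Reg3g this makes 5 of the 10 genes without a measured signal anywhere.

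**Figure D1:**
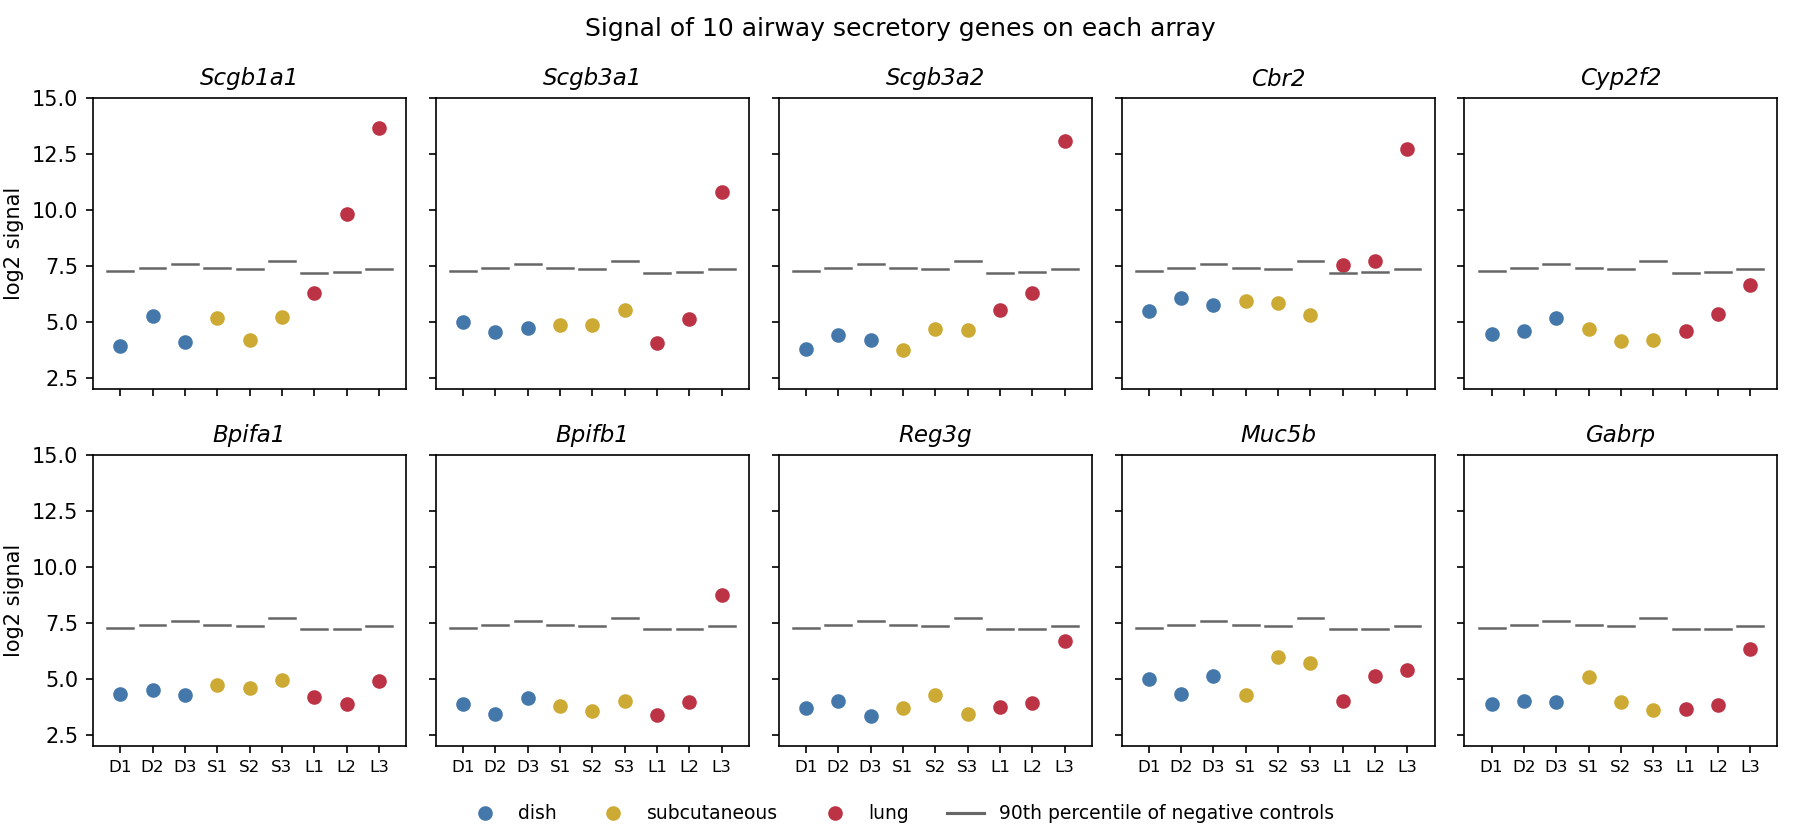
Log2 signal of each of the 10 genes (vertical axis) on the 9 arrays (D dish, S subcutaneous, L lung, each replicate 1 to 3 on the horizontal axis), with 1 point per array and a grey bar at that array's negative control 90th percentile. Scgb1a1, Scgb3a1, Scgb3a2, Cbr2 and Bpifb1 lie above the bar on L3, while all dish and subcutaneous points lie under it.

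By array, 0 of the 10 genes lay above background on each dish and subcutaneous array, 1 on lung replicate 1, 2 on lung replicate 2 and 5 on lung replicate 3, where 32.4% of all genes did. Their mean log2 signal was 4.34 to 4.51 on the dish arrays, 4.59 to 4.66 on the subcutaneous arrays, and 4.71, 5.5 and 8.91 on lung replicates 1, 2 and 3. The dish and subcutaneous ranges lie close together at background, lung replicate 1 is just above them, and lung replicate 3 is far from all. On lung replicate 3 alone, against the background of the subcutaneous arrays, the signal was at least 72.3-fold higher for Scgb1a1, at least 48.3-fold for Scgb3a2, at least 37.2-fold for Cbr2, at least 9.81-fold for Scgb3a1 and at least 2.38-fold for Bpifb1. These are values of 1 array with no replicate.

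The gap between lung replicate 3 and the mean of lung replicates 1 and 2 was 0.83 to 7.19 over the 10 genes, with a median of 3.98, and -0.01 was its median over all 19505 genes. Scgb3a2 (7.19), Scgb3a1 (6.2), Scgb1a1 (5.61), Cbr2 (5.09) and Bpifb1 (5.09) had the 5 largest gaps of all genes, and Reg3g and Gabrp came at ranks 11 and 19. Cyp2f2 was at rank 70, and Bpifa1 and Muc5b at ranks 719 and 818. A gap of at least 2 was seen for 7 of the 10 and for 0.231% of all genes, and 0.62% of all genes had a gap of that size in the other direction. Lung replicate 3 was the highest of the 9 arrays for 8 of the 10 and for 9.37% of all genes, and it was so by at least 1 for the same 8 and for 0.374% of all genes. Since the 10 were chosen with these values known, the shares describe the choice.

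**Figure D2:**
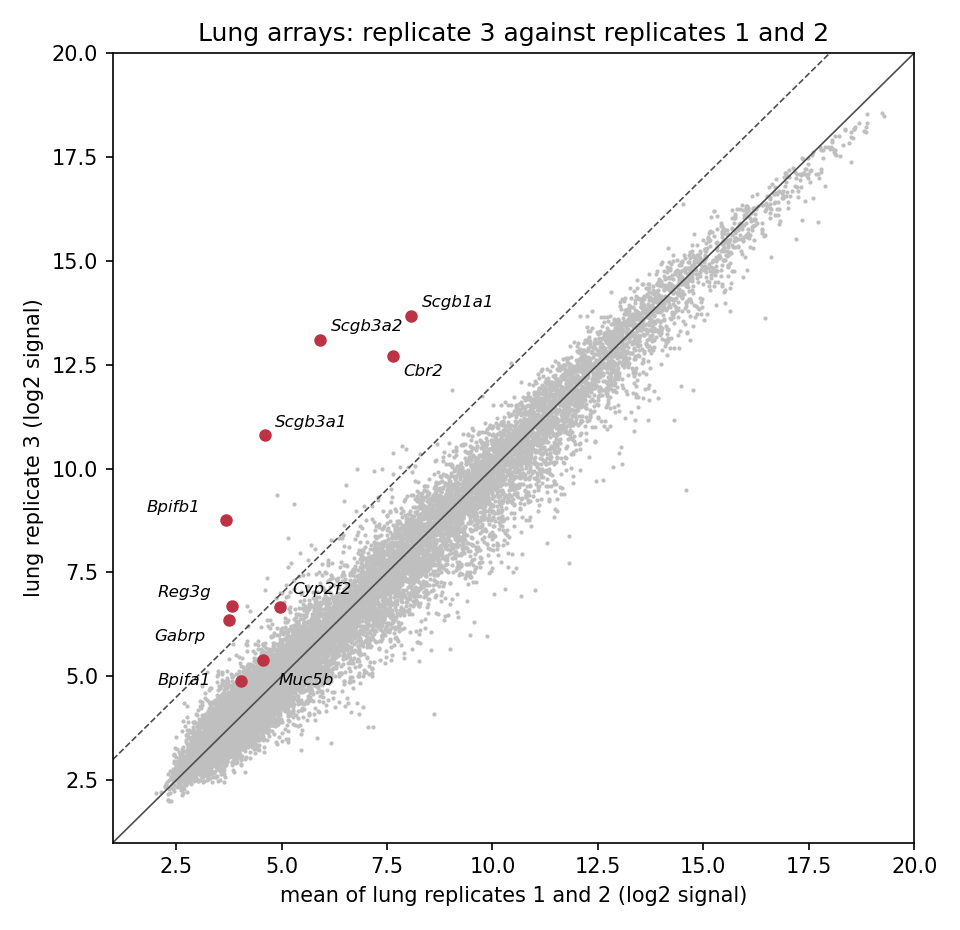
Log2 signal on lung replicate 3 (vertical axis) against the mean of lung replicates 1 and 2 (horizontal axis), with a grey point per gene for 19505 genes and the 10 secretory genes in red; the solid line marks equal values and the dashed line a difference of 2. Of the red points 7 lie above the dashed line, while Cyp2f2, Bpifa1 and Muc5b lie under it.

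The lung against subcutaneous comparison asks whether cells recovered from the lung carried lung genes that cells from under the skin did not, which is the subject the series names. The median difference of the 10 was 1.38, beside -0.07 over all genes, and without lung replicate 3 it was -0.03, beside -0.06. Without that array the difference turned sign for 3 of the 10, Scgb3a1, Bpifb1 and Gabrp. Scgb1a1, Scgb3a2 and Cbr2 did not overlap between the groups, as was the case for 15.8% of all genes in that direction. In the fit over all genes (limma, adjusted p under 0.05) 2 of the 10, Scgb1a1 and Cbr2, were past the threshold upward, where 9.21% of all genes were, and 0 downward, where 5.79% were (15% in either direction). As the genes were chosen by these values, nothing is read from this count, which ran from 0 (without subcutaneous replicate 2) to 4 (without lung replicate 1) as single arrays were left out.

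Against the dish, Scgb1a1 differed by 5.51, Scgb3a2 by 4.18, Cbr2 by 3.55, Scgb3a1 by 1.91 and Bpifb1 by 1.56. Without lung replicate 3 these differences were 3.64, 1.78, 1.85, -0.15 and -0.14, and the median of the 10 went from 1.33 to 0. The dish arrays were at background, so the measurable difference for Cbr2 was at least 1.91, and at least 0.21 without lung replicate 3. For Scgb1a1 the lung mean lay 2.52 above the dish background, and 0.65 without lung replicate 3. These 2 values again include lung replicate 1 at its reading under background and are not lower bounds. Past the threshold were 2 of the 10, Scgb1a1 and Cbr2, where 4.81% of all genes were upward and 1.97% downward (6.78% in either direction). As above, Scgb1a1, Scgb3a2 and Cbr2 did not overlap between the groups, where 13.4% of all genes did not in that direction, and 5.87% of all genes were, like these 3, higher on every lung array than on the 6 others. This comparison shares its lung arrays with the one above, so it is no separate support for it. Nothing is read from this count either, which ran from 0 (without any 1 dish array) to 3 (without lung replicate 1 or 3).

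**Figure D3:**
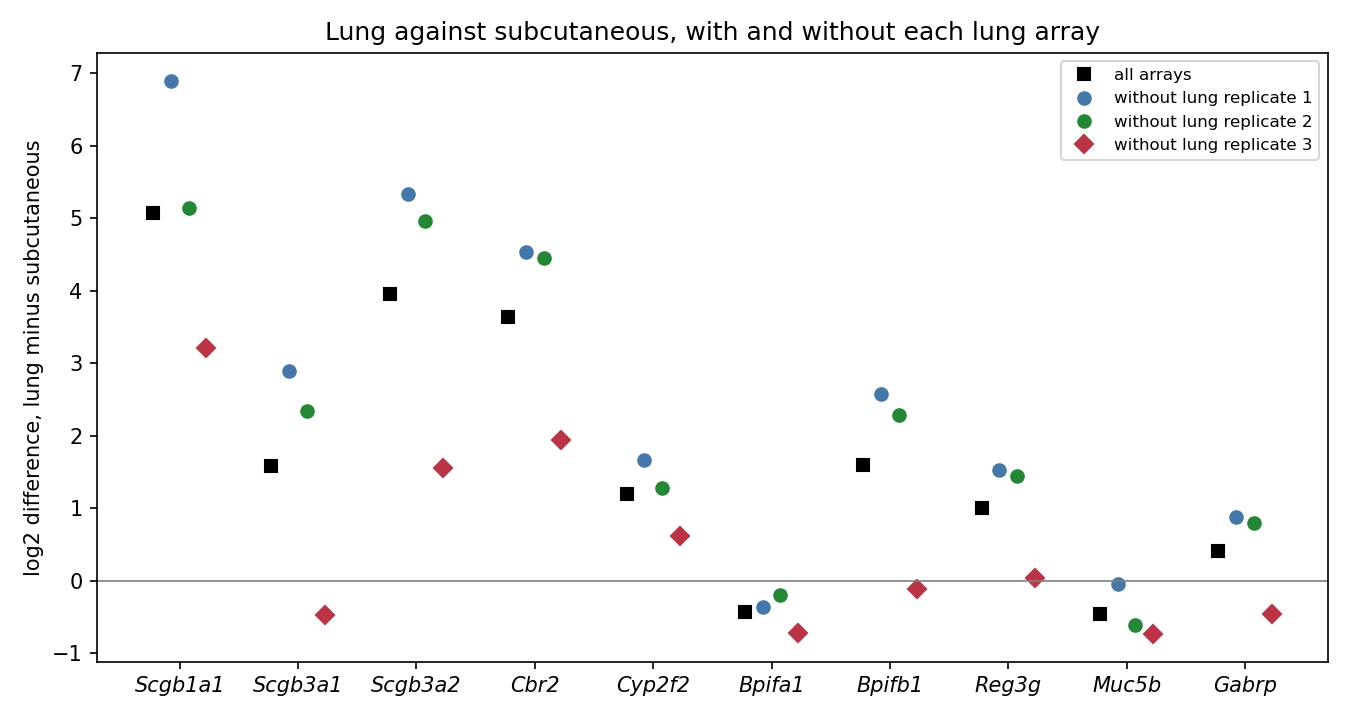
Mean log2 difference between lung and subcutaneous arrays (vertical axis) for each of the 10 genes, with all arrays (black squares) and with lung replicate 1, 2 or 3 left out (blue and green points and red diamonds). Without lung replicate 3 the difference stays above 1 for Scgb1a1 (3.21), Cbr2 (1.94) and Scgb3a2 (1.56), and is -0.48 for Scgb3a1 and -0.11 for Bpifb1.

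The comparison of subcutaneous and dish arrays compares no lung values, and in it the 10 genes are tested. By limma 0 of the 10 passed, and 0 had an unadjusted p under 0.05, where 12.9% of all genes passed in either direction, 6.41% upward and 6.47% downward. Bpifa1 was higher on every subcutaneous than on every dish array, as were 14.2% of all genes. The differences were -0.39 to 0.50, with adjusted p from 0.434 (Bpifa1) to 0.992 (Bpifb1). The error in that fit is shared with the lung arrays, whose spread is wide for these genes (standard errors 0.28 to 1.36). With the subcutaneous and dish arrays alone, the standard errors were 0.24 to 0.42 and the adjusted p values of limma 0.372 to 0.97, and again 0 of the 10 passed and 0 had an unadjusted p under 0.05, where 11.9% of all genes passed. All 10 were under background on all 6 arrays, so a difference at low level was not detectable here.

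Over the 9 arrays the likeness of the 10 genes rested on lung replicate 3. Pearson's r over the 45 pairs ran from 0.03 to 0.99 with a median of 0.83, and over the 8 arrays without lung replicate 3 from -0.77 to 0.86 with a median of -0.01. For the 5 genes above background it ran from 0.83 to 0.99 (median 0.94), and without lung replicate 3 from -0.45 to 0.86 (median 0.06). These correlations are descriptions over arrays that share groups and, for most arrays, background signal.

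Outside the 10, the genes whose 9 values were most like their mean were sought among 2451 genes that varied by at least 2 and passed background at least once. The closest was Tff2 (r = 0.968), the trefoil peptide of mucous and secretory cells, at 4.57 to 5.50 on the dish and subcutaneous arrays and 4.77, 5.03 and 9.36 on the lung arrays. Next came the aminopeptidase Anpep (0.934), the tetraspanin Tspan1 (0.917), the small membrane protein gene Smim22 (0.915), the carboxylesterase Ces1d (0.914), and Retnla (0.905), a resistin-like secreted protein. Sec61b (0.887), Samd8 (0.887), Cstdc4 (0.881) and Podnl1 (0.872) completed the 10. Without lung replicate 3, r was 0.88 for Tspan1, 0.89 for Retnla and 0.69 for Sec61b, and 0.38 or less for the other 7.

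Tspan1, a membrane protein of epithelia, and Retnla were thus, of these 10, the closest to the secretory mean without lung replicate 3. Tspan1 read 7.14, 8.15 and 10.38 on lung replicates 1, 2 and 3 and 5.05 to 5.90 elsewhere. Retnla read 3.86, 6.42 and 8.34 on the lung arrays and 2.65 to 4.62 elsewhere. Tspan1 was above background on lung replicates 2 and 3, like Scgb1a1, and Retnla on lung replicate 3 alone. For the secretory mean, lung replicate 2 (5.5) was likewise above lung replicate 1 (4.71). Of the 10 genes only Cbr2 was above background on both, at 7.71 and 7.55, and Scgb1a1 was so on lung replicate 2. The others were above background on neither, so their order on these arrays is not read as levels.

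**Figure D4:**
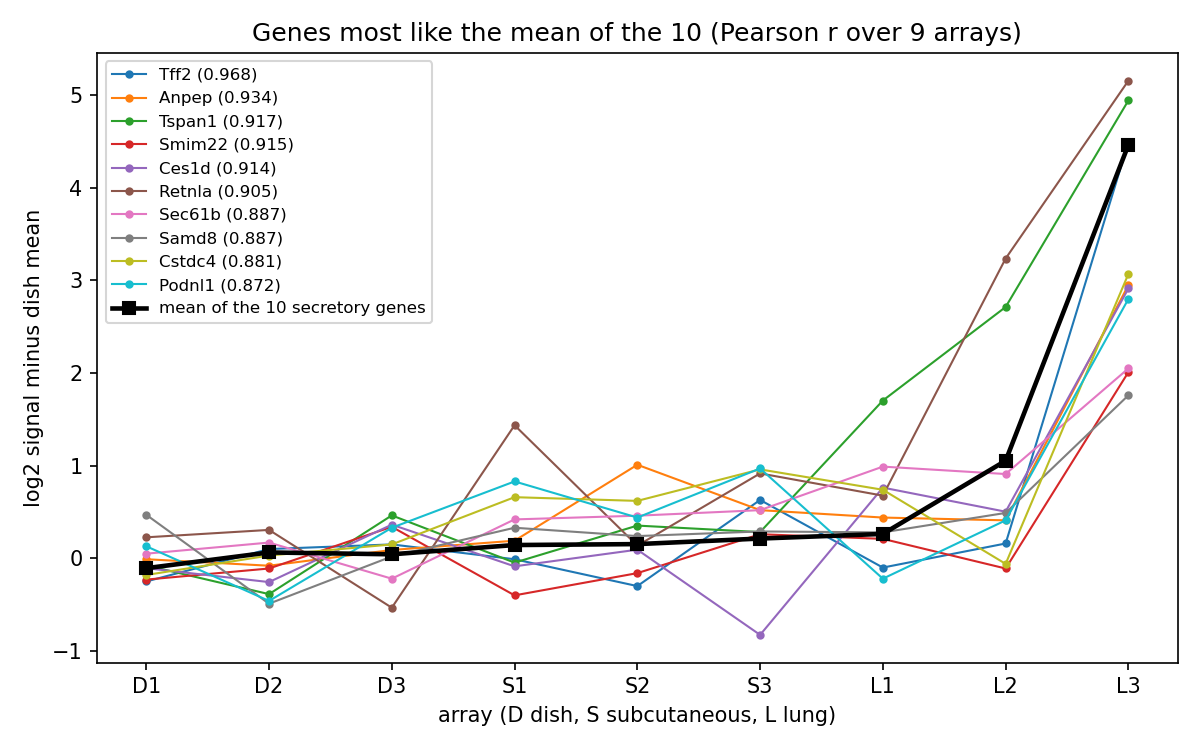
Log2 signal minus the mean of the dish arrays (vertical axis) over the 9 arrays (horizontal axis) for the 10 genes most like the secretory mean (coloured lines, with r over the 9 arrays in the key) and for that mean (black). Every line is highest on L3, and Tspan1 and Retnla also stand above the other lines on L2.

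Near relatives of the 10 did not share their signal. Of 57 measured genes of the Scgb, Bpif, Reg3, Cbr, Muc5 and Gabr families, 1 lay above background on any array, Scgb1b19, which differed by -0.19 between lung and subcutaneous arrays (limma adjusted p = 0.703). The largest gap of any relative between lung replicate 3 and the other lung arrays was 0.76. Bpifa1 and Bpifb1 have only Bpifa5 between them among protein-coding genes of chromosome 2 in GRCm38.p6, and of the 3 only Bpifb1 passed background. Of 17 measured genes that flank one of the 10, the median gap was 0.25. The exception was Dcxr, a sugar and carbonyl reductase gene next to Cbr2, at 7.47, 8.45 and 10.48 on the lung arrays, a gap of 2.52. Dcxr was above background on all 9 arrays, with 7.66 to 8.33 in the dish and 8.99 to 9.97 under the skin, so on lung replicates 1 and 2 it lay under all subcutaneous values.

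Other genes of airway secretory cells lay mostly at background, in lists that leave out the 10. Of 12 further club cell genes, 1 rose in the lung against the skin and 0 fell (median difference 0.13), where 9.21% and 5.79% of all genes did. It was Hp, haptoglobin, by 2.13 (limma adjusted p = 0.00389), or by 1.63 without lung replicate 3. Hp read 5.68, 6.23 and 7.43 on lung replicates 1, 2 and 3. Only the last was above background (7.36 there). The lung mean of 6.44 was under the background of the subcutaneous arrays, so the mean difference has no measurable lower bound. Hp also rose against the dish, by 1.54 (limma adjusted p = 0.0377), and lost that call without any 1 of dish replicates 1, 2 and 3, subcutaneous replicate 1 or lung replicates 2 and 3 (adjusted p = 0.0513 to 0.117). The other 11, among them the club cell genes Cldn10 and Aldh1a1, were under background throughout. Of 12 goblet and mucous genes, 0 passed by limma (median 0.02), and Tff2 was the 1 above background; Muc5ac, the other gel-forming airway mucin, read 4.14 to 4.86.

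Of 12 secreted airway defence genes, 0 rose and 1 fell in the lung against the skin (median -0.17), where 9.21% and 5.79% of all genes did. It was Saa3, an acute phase protein, by -1.14 (-1.36 without lung replicate 3). Saa3 was not above background on any array. It was no longer called without any 1 of 6 arrays (the 3 dish arrays, subcutaneous replicate 3, lung replicates 1 and 2). Against the dish the protease inhibitor gene Wfdc2 and the siderophore-binding protein gene Lcn2 rose in the lung, and Wfdc2 also rose under the skin. Wfdc2 read 6.57, 5.82 and 6.35 in the dish, 8.26, 8.29 and 8.86 under the skin and 7.9, 7.97 and 7.66 in the lung, so that its 3 groups did not overlap. The subcutaneous difference from the dish was 2.23 (limma adjusted p = 0.000157), at least 1.05 above background, and the lung difference 1.60 (limma adjusted p = 0.00421), at least 0.42, or 1.69 without lung replicate 3. Wfdc2 thus had its lowest lung value on lung replicate 3. Lcn2 differed by 3.06 between lung and dish (limma adjusted p = 0.0156), and by 2.52 without lung replicate 3. Its lung mean lay 0.27 above the dish background. That is not a lower bound, since lung replicate 2 was under background and enters at its reading of 6.37. Lcn2 lost its call without dish replicate 2, dish replicate 3 or lung replicate 1 (limma adjusted p = 0.0618, 0.0656 and 0.0628).

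Markers of ciliated, basal, neuroendocrine, tuft and ionocyte cells were at background. Of the 11 ciliated cell genes and the 8 basal cell genes, 0 lay above background on any array and 0 passed by limma in the lung comparisons. Of the 9 neuroendocrine, tuft and ionocyte genes 0 were above background either, with Cftr called in the lung against the skin at -1.31 (-1.21 without lung replicate 3). Of 12 transcription factors of airway cells, 1 was above background, Klf5, on all 9 arrays, and 0 passed in any comparison by limma. Nkx2-1, Foxa1, Foxa2, Sox2 and Cebpa were under background on lung replicate 3 as on the other arrays. Of 10 general epithelial genes, Cdh1, which was under background on all 9 arrays, was called at 1.12 and Krt18 fell (-2.98) in the lung against the skin. Without lung replicate 3 these differences were 1.02 and -3.29. Krt18 was above background on all subcutaneous arrays and on lung replicates 1 and 3. Against the dish it was 2.33 higher in the lung (limma adjusted p = 0.00178). Krt8 was above background on all 9 arrays, at 11.68 to 13.87. The other 8 epithelial genes were under background throughout. Cdh1 lost its call without subcutaneous replicate 1 or 3 or lung replicate 2, and Epcam was among the genes under background.

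Alveolar genes were called in the lung as well. Of 10 alveolar type II genes, 6 passed upward and 0 downward against the skin (median 1.45), where 9.21% and 5.79% of all genes did. They were led by the surfactant genes Sftpc and Sftpa1 and the chemokine Cxcl15. The same shares stand beside the calls of alveolar type I genes below. Both lists were chosen with earlier results known, so these calls are a description. The phosphate transporter gene Slc34a2, 1 of the 6, lost its call without any 1 array except lung replicate 2. Sftpc read 15.59, 13.45 and 16.37 on lung replicates 1, 2 and 3, and Sftpa1 read 9.31, 8.77 and 11.88, so both were above background on all 3. The differences from the subcutaneous arrays, which were at background for all 6, were at least 7.63 for Sftpc and at least 2.48 for Sftpa1, or at least 7.01 and 1.53 without lung replicate 3. Like Scgb3a2, Sftpb and Cxcl15 were above background on lung replicate 3 alone, and Sftpd and Slc34a2 on 0 of the 9 arrays. Lung replicate 3 was the highest array for 7 of the 10 alveolar type II genes, 8 of the 10 secretory genes and 9.37% of all genes. These counts include genes under background on all 9 arrays: Sftpd, Slc34a2 and Napsa, and Cyp2f2, Reg3g and Gabrp. Such genes also enter the median gap of lung replicate 3 over the other lung arrays. It was 1.19 for the alveolar type II genes, 3.98 for the 10 secretory genes and -0.53 for the 8 alveolar type I genes. Of the latter, Cldn18 (3.24) and Ager (1.39) rose and Emp2 (-1.80) fell against the skin (3.21, 1.63 and -1.61 without lung replicate 3). Cldn18 was above background on all 3 lung arrays and Ager on lung replicate 2 alone, without which Ager lost its call. The difference between these gaps rests on 1 array and was not tested.

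Among markers of non-epithelial cells, most stayed at background on lung replicate 3. Of 10 macrophage genes, 1 was above background there, Lyz2, a lysozyme that alveolar type II cells also express, called against the skin (2.33, or 1.65 without lung replicate 3) and not without any 1 array except lung replicate 2, and Marco, Siglecf and Csf1r were under it. The 6 neutrophil, 7 lymphocyte and 7 endothelial genes had 0 above background on any lung array, and 0 passed between lung and subcutaneous arrays by limma. Of 7 fibroblast genes, Dcn (-4.44) and Lum (-6.12) fell in the lung against the skin (-3.6 and -5.78 without lung replicate 3). Dcn was still above background on all 3 lung arrays, at 13.94, 12.15 and 10.53. Its lung values were 5.15 above the dish (limma adjusted p = 0.000455). Lum was above background on lung replicates 1 and 2. The mean of the fibroblast list was lowest of the lung arrays on lung replicate 3 (6.18, 6.17 and 5.48). The 1 measured erythroid gene, Alas2, was under background on all arrays. The part of any of these lists in the secretory signal was not tested.

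**Figure D5:**
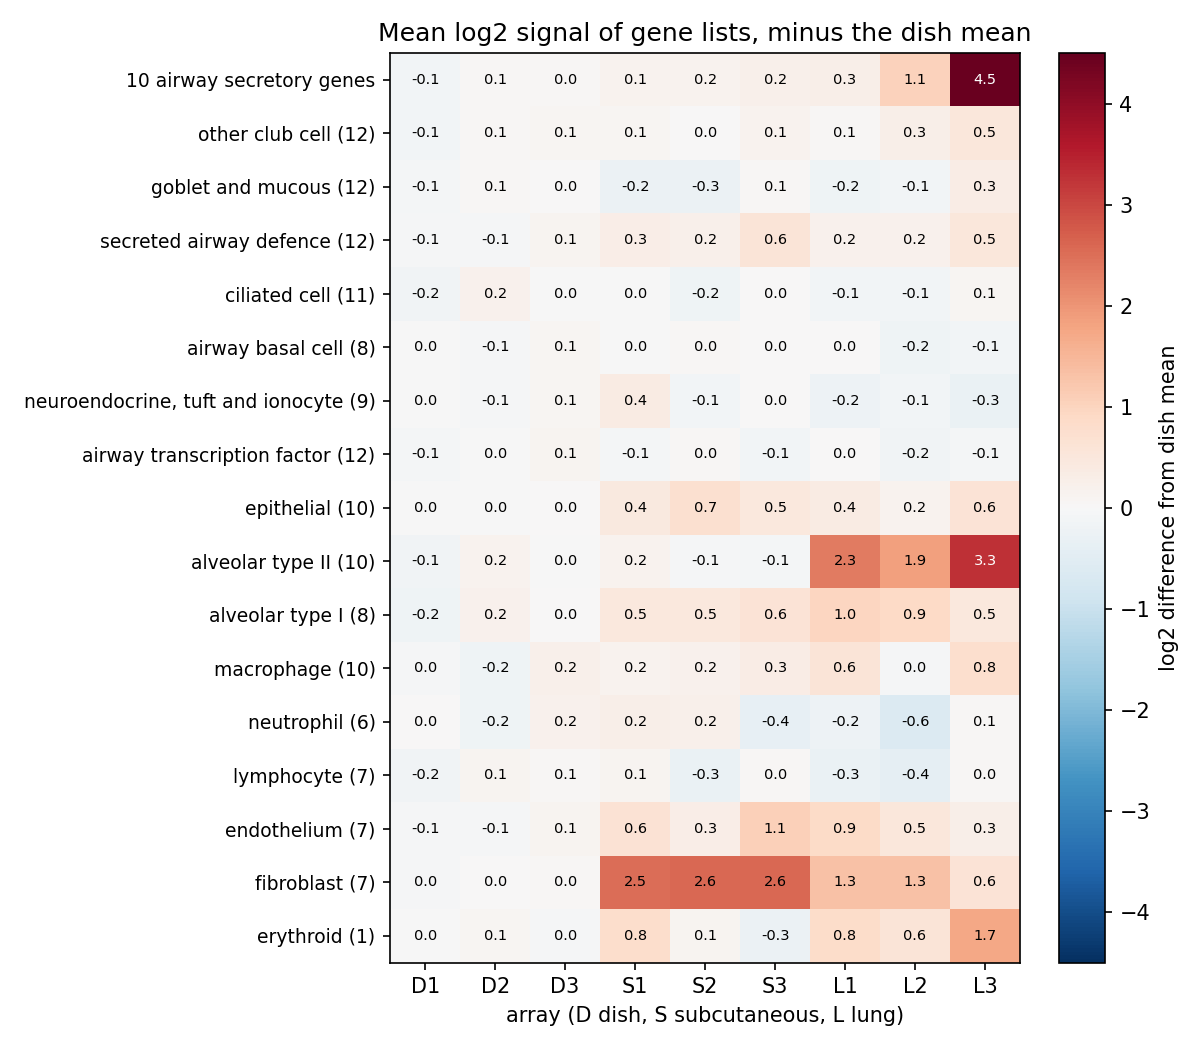
Mean log2 signal of each gene list on each array (columns, D dish, S subcutaneous, L lung) minus the mean of the dish arrays, in colour and printed, with the number of measured genes in parentheses. The 10 secretory genes are high on L3, alveolar type II genes on all 3 lung arrays, and ciliated, basal and transcription factor lists stay near 0.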

How the data were processed

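RNA of 9 samples in 3 groups was measured on a 1-colour whole-transcript array, 1 array per sample, after biotin labelling of fragmented sense-strand cDNA, per the labels' protocols. The deposited file gives the authors' log2 signals (1.56 to 19.7) for 28846 features. How they were normalized, with which software and on which build is not given in the sources used here. The table was used as deposited. Platform annotation gave 19572 features 1 symbol and 2634 gene features none. All 19572 were looked up in RefSeq GRCm38.p6 by gene number, and 0 changed. The feature with the highest mean stood for a gene, leaving 19505. The 5222 negative controls set background, since no detection call was at hand. Bounds written "at least" set against it a mean of arrays that were all above background, or lung replicate 3 alone. The number of arrays limits the precision.

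Tests used limma 3.58.1 under R 4.3.3 (lmFit, eBayes, 3 group means, 6 residual and 7.08 prior degrees of freedom), two-sided, with Benjamini-Hochberg adjustment over 19505 genes and no filter on level. The fit was tested on simulated data. Groups and replicate numbers came from titles. No 2 arrays were identical. The 10 genes and the 16 further lists (161 genes, 142 measured) were chosen with earlier results of these data known. Genes named are the 10, the called list members whose groups do not overlap (at most 3 a direction), relatives above background, and the 10 most like the mean. List members and flanking genes singled out beyond this, such as Dcxr, Lcn2 and Lyz2, were chosen after their values were seen. Alternatives left out each array, normalized by quantiles, filtered dim genes, or added an intensity trend, array weights, a replicate block or RNA integrity.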

Additional observations from a re-analysis of the deposited data

How the results depend on the processing

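With 1 array left out at a time, the genes called between lung and subcutaneous arrays numbered 1476 (without lung replicate 1) to 2928, from 2927, with 1938 without lung replicate 2. Between lung and dish they numbered 514 (without dish replicate 2) to 1442, from 1322, with 667 without dish replicate 3 and 591 and 765 without lung replicates 1 and 2. Between subcutaneous and dish they numbered 1639 (without dish replicate 2) to 2738, from 2513. Of the 10 secretory genes 0 to 4, 0 to 3 and 0 to 0 were called in the same comparisons, from 2, 2 and 0. Between lung and subcutaneous arrays, 1 of the 10 was called with array weights, and 1 with the filter on dim genes, which keeps Cbr2 alone. Between lung and dish, 1 was called after quantile normalization, 1 with that filter and 1 with the RNA integrity number as a covariate. Over all genes, array weights gave 3039 calls between lung and dish, and the integrity number gave 856 there and 1280 between subcutaneous and dish. The cause of these shifts was not tested. With the 95th percentile of the negative controls as background, 0 of the 10 passed on lung replicate 1 and 1 on lung replicate 2. Without lung replicate 3 the difference turned sign for 3 of the 10 between lung and subcutaneous arrays and for 4 between lung and dish, shifts that lie within a spread between replicates which includes that array. After seeing the data, the subcutaneous and dish arrays were fitted alone, giving 2312 genes and 0 of the 10, and the same alternatives were run on called genes of the other lists, of which 567 results kept their call and 101 lost it.

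Same-numbered arrays did not deviate together (r across genes -0.06 to 0.09), so the numbers are not read as pairs. With a replicate block, 3 of the 10 were called in each lung comparison and 0 between subcutaneous and dish arrays.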
